A study of Mus musculus with 19 samples.

Results

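The genes described here are the collagen chains and 10 further extracellular matrix genes of the mouse: every gene whose symbol has the form Col, a number, the letter a and a number, together with Sparc, Mgp, Bgn, Dcn, Lum, Fn1, Vcan, Fbn1, Eln and Postn. The rule found 54 genes, 44 collagen chains and all 10 listed genes, among 23458 gene names in the series. Their polyadenylated RNA was measured in 17 sequencing libraries of C57BL/6 mouse cells that model leukemia driven by FLT3-ITD, an internal tandem duplication that keeps the receptor tyrosine kinase FLT3 active.

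In the retroviral model, every donor carried the Mx1-cre transgene, whose promoter responds to interferon. Donor marrow cells were transduced with an MSCV retrovirus and given to lethally irradiated mice, whose own stroma remained. The cells sorted for sequencing came from the donor and carried both CD4 and CD8, as immature T cells of the thymus do. The 4 retroviral groups were leukemias with MSCV_FLT3-ITD-GFP and floxed Dnmt3a (FLT3-ITD Dnmt3a f/f, n = 4), leukemias with MSCV_FLT3-ITD-GFP and intact Dnmt3a (FLT3-ITD Dnmt3a +/+, n = 3), thymocytes with the GFP virus and floxed Dnmt3a (GFP Dnmt3a f/f, n = 2) and thymocytes with the GFP virus and intact Dnmt3a (GFP Dnmt3a +/+, n = 2). Dnmt3a encodes a de novo DNA methyltransferase. The knock-in mice carried the duplication on 1 Flt3 allele, and their bulk marrow was sequenced unsorted. Its groups were 1 leukemia that was ER-cre+ with Dnmt3a f/f (knock-in Dnmt3a f/f, n = 1), leukemias that were ER-cre+ with Dnmt3a f/+ (knock-in Dnmt3a f/+, n = 2) and pre-leukemic marrow that was ER-cre- with Dnmt3a f/f (n = 3). Ages were not given in the sources used here.

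Libraries held 4933890 to 25331908 counts. Thymus was the source of all GFP libraries, of FLT3-ITD Dnmt3a +/+ replicates 1 and 3 and of FLT3-ITD Dnmt3a f/f replicates 3 and 4, and marrow was the source of the others. FLT3-ITD Dnmt3a f/f replicates 3 and 4 and all knock-in libraries came in a second submission. No label ties a replicate to an animal, although replicates are termed biological, so the p-values reflect how far these libraries spread, which may in part be technical. Dnmt3a was at 53.0 to 126.7 CPM (counts scaled to a common library size) in FLT3-ITD Dnmt3a f/f leukemias, against 180.2 to 237.7 CPM in FLT3-ITD Dnmt3a +/+ leukemias, a count that also covers exons the deletion spares. The 8 markers of double-positive thymocytes summed to 1858 to 7429 CPM in FLT3-ITD Dnmt3a f/f leukemias and 5599 to 9816 CPM in FLT3-ITD Dnmt3a +/+ leukemias, against 11550 to 13020 CPM in GFP Dnmt3a f/f and 11540 to 12020 CPM in GFP Dnmt3a +/+ thymocytes. FLT3-ITD Dnmt3a f/f replicate 4 stands apart: its 10 macrophage markers summed to 4887 CPM and it was the highest of the 17 libraries for 33 of the 54 matrix genes. The main values that rest on it are given with and without it.

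Collagens are triple helices of 3 chains. Fibrillar chains such as Col1a1, Col1a2 and Col3a1 build the tension-bearing fibres of connective tissue, collagen IV forms the sheet of basement membranes, collagen VI makes beaded filaments around cells, and FACIT collagens sit on fibril surfaces. Fibronectin, versican, fibrillin and the small proteoglycans organise that network and display sites to which cells adhere. In marrow and thymus most of these genes are known as products of stromal, endothelial and epithelial cells. Fibronectin and versican are also made by cells of the monocyte lineage.

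RefSeq windows of 300 bases, 250 before to 50 after the gene start on GRCm38.p6, were at hand for 40 of the 54 genes. The 5 shown here belong to genes on which the results turn: Col1a2 and Sparc, which were higher in FLT3-ITD Dnmt3a f/f leukemias, Col4a1, whose start lies beside that of Col4a2, Vcan, which was higher in the knock-in leukemias, and Col27a1, whose levels set the leukemia libraries apart. Capitals mark CG dinucleotides, the bases at which Dnmt3a methylates.
Col1a2, chr6:4505368-4505667, plus strand: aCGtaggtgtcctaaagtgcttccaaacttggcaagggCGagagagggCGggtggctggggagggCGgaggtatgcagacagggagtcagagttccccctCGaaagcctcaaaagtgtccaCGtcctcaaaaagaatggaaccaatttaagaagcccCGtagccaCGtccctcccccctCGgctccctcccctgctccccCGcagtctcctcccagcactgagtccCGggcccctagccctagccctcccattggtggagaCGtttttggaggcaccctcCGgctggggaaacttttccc
Sparc, chr11:55420031-55420330, minus strand: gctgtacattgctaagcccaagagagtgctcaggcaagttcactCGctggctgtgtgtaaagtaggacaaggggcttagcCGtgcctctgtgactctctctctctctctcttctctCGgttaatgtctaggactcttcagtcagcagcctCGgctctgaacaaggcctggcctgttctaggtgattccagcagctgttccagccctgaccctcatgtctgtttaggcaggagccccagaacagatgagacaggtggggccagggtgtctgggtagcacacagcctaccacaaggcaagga
Col4a1, chr8:11312777-11313076, minus strand: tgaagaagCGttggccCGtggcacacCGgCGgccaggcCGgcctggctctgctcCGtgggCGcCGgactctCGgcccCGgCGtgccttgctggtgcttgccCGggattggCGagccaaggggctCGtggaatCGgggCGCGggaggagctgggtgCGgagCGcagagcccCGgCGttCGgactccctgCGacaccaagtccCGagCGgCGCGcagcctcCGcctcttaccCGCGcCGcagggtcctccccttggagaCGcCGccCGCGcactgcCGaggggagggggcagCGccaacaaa
Vcan, chr13:89742463-89742762, minus strand: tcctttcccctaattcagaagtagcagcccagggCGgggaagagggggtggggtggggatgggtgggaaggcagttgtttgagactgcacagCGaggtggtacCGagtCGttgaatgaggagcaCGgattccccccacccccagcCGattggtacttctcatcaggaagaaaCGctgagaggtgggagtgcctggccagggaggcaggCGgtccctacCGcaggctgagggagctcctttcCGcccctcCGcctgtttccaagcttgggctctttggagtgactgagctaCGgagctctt
Col27a1, chr4:63215162-63215461, plus strand: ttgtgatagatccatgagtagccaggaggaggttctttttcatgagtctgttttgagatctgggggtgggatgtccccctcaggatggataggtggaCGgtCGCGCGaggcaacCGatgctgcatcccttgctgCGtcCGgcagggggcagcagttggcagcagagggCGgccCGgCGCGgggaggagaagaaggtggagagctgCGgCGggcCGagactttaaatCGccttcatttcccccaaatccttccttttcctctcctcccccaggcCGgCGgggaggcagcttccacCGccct

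The windows differ in CG content. That of Sparc holds 4 CG, a number that 68.6% of all 32851 windows reach or pass, and that of Col4a1 holds 37, which 5.58% of all windows reach. Col1a2 has 13, Vcan 12 and Col27a1 18, and the 40 windows range over 0 to 37 with a median of 12, against a median of 7 over all windows. The letters CCAAT, or ATTGG on the other strand, occur in 14 of the 40 windows and in 37.4% of all windows, and TATAAA, or TTTATA on the other strand, occurs in 5 of the 40 and in 13.6% of all. Methylation was not among the values analysed here.

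The matrix genes made up a small part of most libraries. Summed over all 54 genes, FLT3-ITD Dnmt3a f/f leukemias had 378.4, 268.7, 648.3 and 3706 CPM in replicates 1 to 4, FLT3-ITD Dnmt3a +/+ leukemias 63.8 to 288.1 CPM, GFP Dnmt3a f/f thymocytes 73.3 and 118 CPM, and GFP Dnmt3a +/+ thymocytes 84.4 and 118.9 CPM. The knock-in Dnmt3a f/f leukemia had 5929 CPM and the knock-in Dnmt3a f/+ leukemias 576.0 and 2597 CPM, against 137.3 to 316.8 CPM in pre-leukemic marrow. Different genes carried these sums. Fn1 alone was 83.9% of the knock-in Dnmt3a f/f sum and 91.3% of that of knock-in Dnmt3a f/+ replicate 2, Col3a1 led in FLT3-ITD Dnmt3a f/f replicate 4 with 18%, and Col27a1 led in every GFP library. The map of all members by library shows these blocks. A set of 15 collagen chains stayed under 1 CPM in every library, among them all cartilage-type collagen IX chains except Col9a3, and Col4a3, Col4a4 and Col4a6 of specialised basement membranes.

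**Figure D1:**
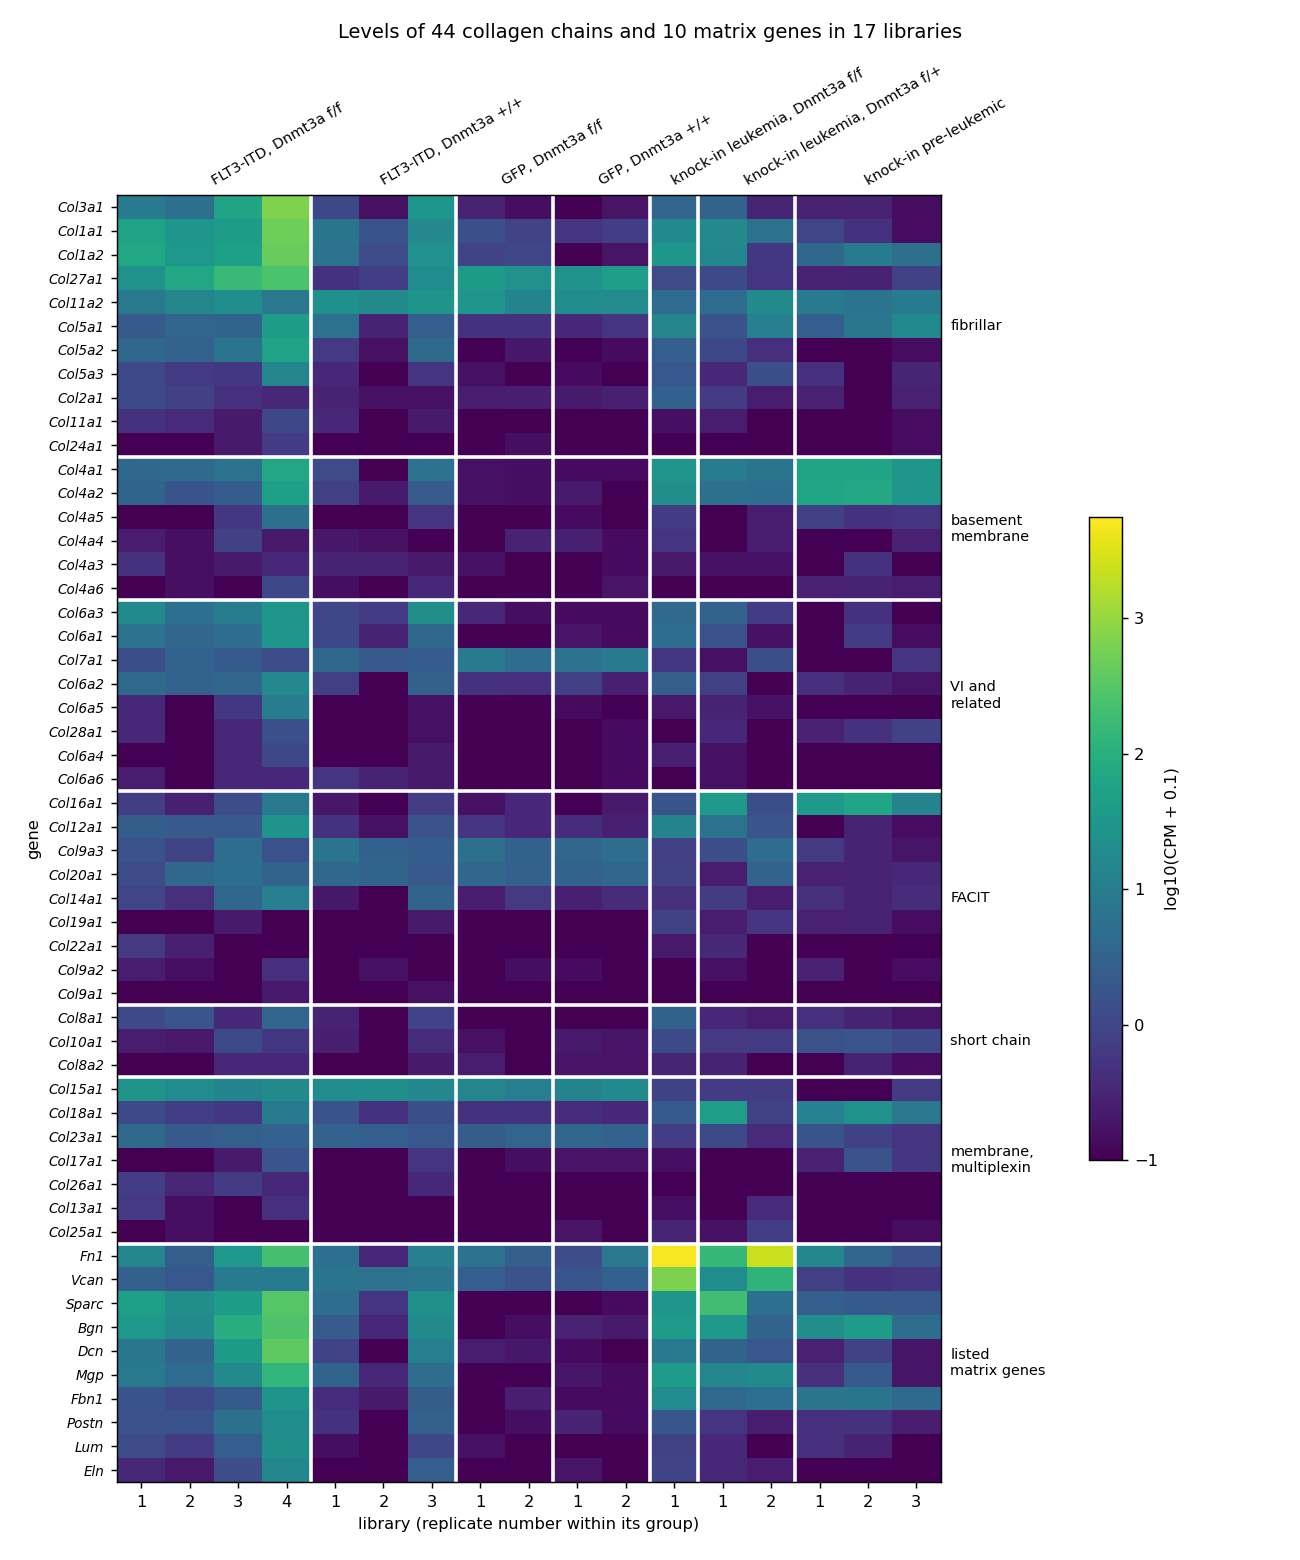
Levels of the 54 genes (rows, grouped by type of matrix protein and ordered by mean level) in the 17 libraries (columns, grouped by genotype and numbered by replicate), as log10(CPM + 0.1), with darker colours for lower levels. Stromal-type genes from Col3a1 to Postn are bright in FLT3-ITD Dnmt3a f/f replicate 4 and dark in the GFP libraries, Col15a1 is even over all retroviral groups, and Fn1 and Vcan are brightest in the knock-in leukemias.

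The first question was which matrix genes differ between FLT3-ITD leukemias with floxed Dnmt3a and thymocytes of the same Dnmt3a genotype. A large part of the stromal matrix was higher in the leukemias: chains of the fibrillar collagens I, III and V, both common collagen IV chains, chains of collagens VI and VIII, and 6 of the 10 listed genes. In the thymocytes these genes were at or below 1.34 CPM. Of the 46 members that passed the filter on low counts, 15 were called higher and none lower by the quasi-likelihood test of edgeR, at an adjusted p under 0.05 by the Benjamini-Hochberg method, where 19.6% of all genes tested were called, 9.80% higher and 9.85% lower. The libraries of the groups did not overlap for 26 of the 46 on the higher side and 1 on the lower side, where 22.9% and 21.8% of all genes tested do not. The median fitted log2 difference of the 46 was 5.46, or 3.96 with the 24 members that had 0 to 3 counts in 1 group set at their lower bound or ratio, against 0.19 over all genes tested. Without replicate 4 it was 3.86 fitted and 2.48 with bounds, over the 42 members then tested. The filter can admit a gene through 1 library. Col11a1, Col4a6, Col6a4 and Col6a5 passed it only with replicate 4 in the fit, the library in which they were highest. Col26a1 passed only through FLT3-ITD Dnmt3a f/f replicate 1 (0.636 CPM) and Col4a4 only through replicate 3 (0.722 CPM), so 45 members were tested without either library. Both are also among the 42. The places of all these genes among the 46, and so in the counts and the median, each rest on 1 library of the group in which they were highest. Of all 54 members, 51 had the higher mean CPM in FLT3-ITD Dnmt3a f/f leukemias, as did 55.5% of the 19253 genes with counts. In bulk RNA, a smaller number of cells of a type and less RNA per cell cannot be told apart.

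Type I collagen, the main protein of bone and connective tissue fibres, showed this plainly. The Col1a1 gene lies on the plus strand of chromosome 11 (mm9, 94797584 to 94813170). Its level was 57.0, 31.6, 41.3 and 513.3 CPM in FLT3-ITD Dnmt3a f/f replicates 1 to 4, against 1.34 and 0.861 CPM in GFP Dnmt3a f/f thymocytes. All 4 leukemias lay above both thymocyte libraries, and replicate 4 lay far above the other leukemias. The log2 difference was 7.19 ± 1.65 (SE; adjusted p = 0.0123), and 5.29 without replicate 4. Its partner chain Col1a2, on the plus strand of chromosome 6 (mm9, 4455697 to 4491543), had 66.9, 33.5, 48.7 and 434.7 CPM in the leukemias, against 0.831 and 0.912 CPM in the thymocytes. Its log2 difference was 7.37 ± 1.89 (adjusted p = 0.0188), and 5.82 without replicate 4.

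Type III collagen co-assembles with type I in soft tissues. Col3a1 was at 9.42, 5.61, 59.3 and 667.6 CPM in FLT3-ITD Dnmt3a f/f replicates 1 to 4, against 0.192 and 0.0506 CPM in GFP Dnmt3a f/f thymocytes. Both thymus leukemias lay above both marrow leukemias, and all 4 lay above the thymocytes. The log2 difference was 10.56 ± 3.21 (adjusted p = 0.0373), and 7.64 without replicate 4. Col5a2, a chain of the type V collagen that nucleates fibrils, was called too, with 3.08 to 54.7 CPM in the leukemias and 0 and 0.101 CPM in the thymocytes, a ratio of 245.9 (67.8 to 2035; adjusted p = 0.0233) that was 72.6 without replicate 4. Of the 10 fibrillar chains tested, 4 were called higher and none lower. Col5a1, Col5a3 and Col11a1 did not overlap between the groups but missed the adjusted threshold (adjusted p = 0.0627, 0.0511 and 0.0566). Col11a1 passed the filter only with replicate 4 in the fit.

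The basement membrane chains Col4a1 and Col4a2 are transcribed away from each other, with 2 bases between their gene models on mm9 chromosome 8, and their RefSeq windows overlap. Col4a1 was at 3.69, 4.29, 5.77 and 71.1 CPM in FLT3-ITD Dnmt3a f/f replicates 1 to 4, against 0.0639 and 0.0506 CPM in GFP Dnmt3a f/f thymocytes, where each value stands for 1 count. The ratio of the summed levels was 307.8 (95% exact binomial counting interval 84.9 to 2546; adjusted p of the fit 0.022), and 79.8 without replicate 4. Col4a2 was at 3.31, 1.59, 2.29 and 48.5 CPM in the leukemias, against 0.0639 and 0.0506 CPM in the thymocytes, a ratio of 196.9 (54.2 to 1631; adjusted p = 0.0214) that was 38.1 without replicate 4. Replicate 4 was again far above the rest, and no leukemia reached down to a thymocyte library. The other 4 collagen IV chains had at most 5.58 CPM in any library, and none was called.

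Among the filament-forming collagen VI chains, Col6a1 was at 6.24, 3.63, 4.93 and 30.7 CPM in FLT3-ITD Dnmt3a f/f replicates 1 to 4, against no count in either GFP Dnmt3a f/f library. Set against a floor of 3 counts over the thymocyte group, it was at least 113.3-fold higher (adjusted p = 0.0163), and at least 53.6-fold without replicate 4. Col6a3 was called as well, with 5.28 to 32.9 CPM in the leukemias and 0.0506 and 0.256 CPM in the thymocytes, a log2 difference of 6.73 ± 1.98 (adjusted p = 0.0326) that was 6.16 without replicate 4. Col6a2 was at 3.08 to 17.4 CPM against 0.355 and 0.383 CPM and was not called (adjusted p = 0.094). Col8a1, a short chain collagen of vessel walls, was at 0.241 to 3.40 CPM with no count in the thymocytes, at least 19.1-fold higher (adjusted p = 0.029), and at least 14.1-fold without replicate 4. No FACIT or membrane-type collagen was called.

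The listed matrix genes followed the fibrillar chains. Sparc, a collagen-binding glycoprotein that helps mature collagen into fibrils, was at 47.3, 21.9, 41.9 and 314.9 CPM in FLT3-ITD Dnmt3a f/f replicates 1 to 4, against no count in either GFP Dnmt3a f/f library. It was at least 1029-fold higher (adjusted p = 0.0147), and at least 384.2-fold without replicate 4. Mgp, an inhibitor of calcification, was at 8.27, 4.51, 17.1 and 135.1 CPM in the leukemias, with no count in the thymocytes, and was at least 388.3-fold higher (adjusted p = 0.0138), or 99.2-fold without replicate 4. These 2 genes were at 0 in every thymocyte library of that genotype and well above 1 CPM in every leukemia.

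The small proteoglycans Bgn (biglycan), Dcn (decorin) and Lum (lumican) bind collagen fibrils. Bgn was at 33.9, 18, 89.4 and 264.2 CPM in FLT3-ITD Dnmt3a f/f replicates 1 to 4, against 0 and 0.0506 CPM in GFP Dnmt3a f/f thymocytes. With 1 count on the lower side, the ratio was 2919 (523.6 to 115300; adjusted p = 0.0126), and 1377 without replicate 4. Dcn was at 7.38, 3.08, 38.4 and 368.2 CPM in the leukemias, against 0.128 and 0.101 CPM in the thymocytes, a log2 difference of 9.74 ± 2.83 (adjusted p = 0.0312) that was 7.07 without replicate 4. Bgn and Dcn were both higher in the thymus leukemias, replicates 3 and 4, than in the marrow leukemias. Lum was at 1.15, 0.605, 2.53 and 23.1 CPM, against 0.0639 and 0 CPM in thymocytes, and was not called (adjusted p = 0.0667).

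Fbn1, which encodes the fibrillin of elastic microfibrils, was at 1.65, 1.04, 2.16 and 28.6 CPM in FLT3-ITD Dnmt3a f/f replicates 1 to 4, against 0 and 0.152 CPM in GFP Dnmt3a f/f thymocytes. The ratio was 79.2 (26.8 to 386.3; adjusted p = 0.0331), and 17.2 without replicate 4. Postn, periostin of periosteum and remodelling tissue, was at 1.4, 1.48, 5.65 and 20.1 CPM in the leukemias, against 0 and 0.0506 CPM in the thymocytes, a ratio of 208.5 (37.1 to 8269; adjusted p = 0.0316) that was 87.5 without replicate 4. Both were called, and every leukemia lay above every thymocyte library.

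Eln, the elastin gene, was at 0.255, 0.110, 1.20 and 14.9 CPM in FLT3-ITD Dnmt3a f/f replicates 1 to 4, against no count in GFP Dnmt3a f/f thymocytes, and was not called (adjusted p = 0.11). Fn1 was at 15.1, 2.69, 33.7 and 226.1 CPM in the leukemias, against 5.75 and 2.63 CPM in the thymocytes, so the groups overlapped and no call was made. Vcan was at 2.80, 1.81, 9.50 and 9.22 CPM in the leukemias, against 2.56 and 1.52 CPM in the thymocytes, with overlap and no call. Fn1 and Vcan thus had levels above 1 CPM in both thymocyte libraries, and Eln had none.

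**Figure D2:**
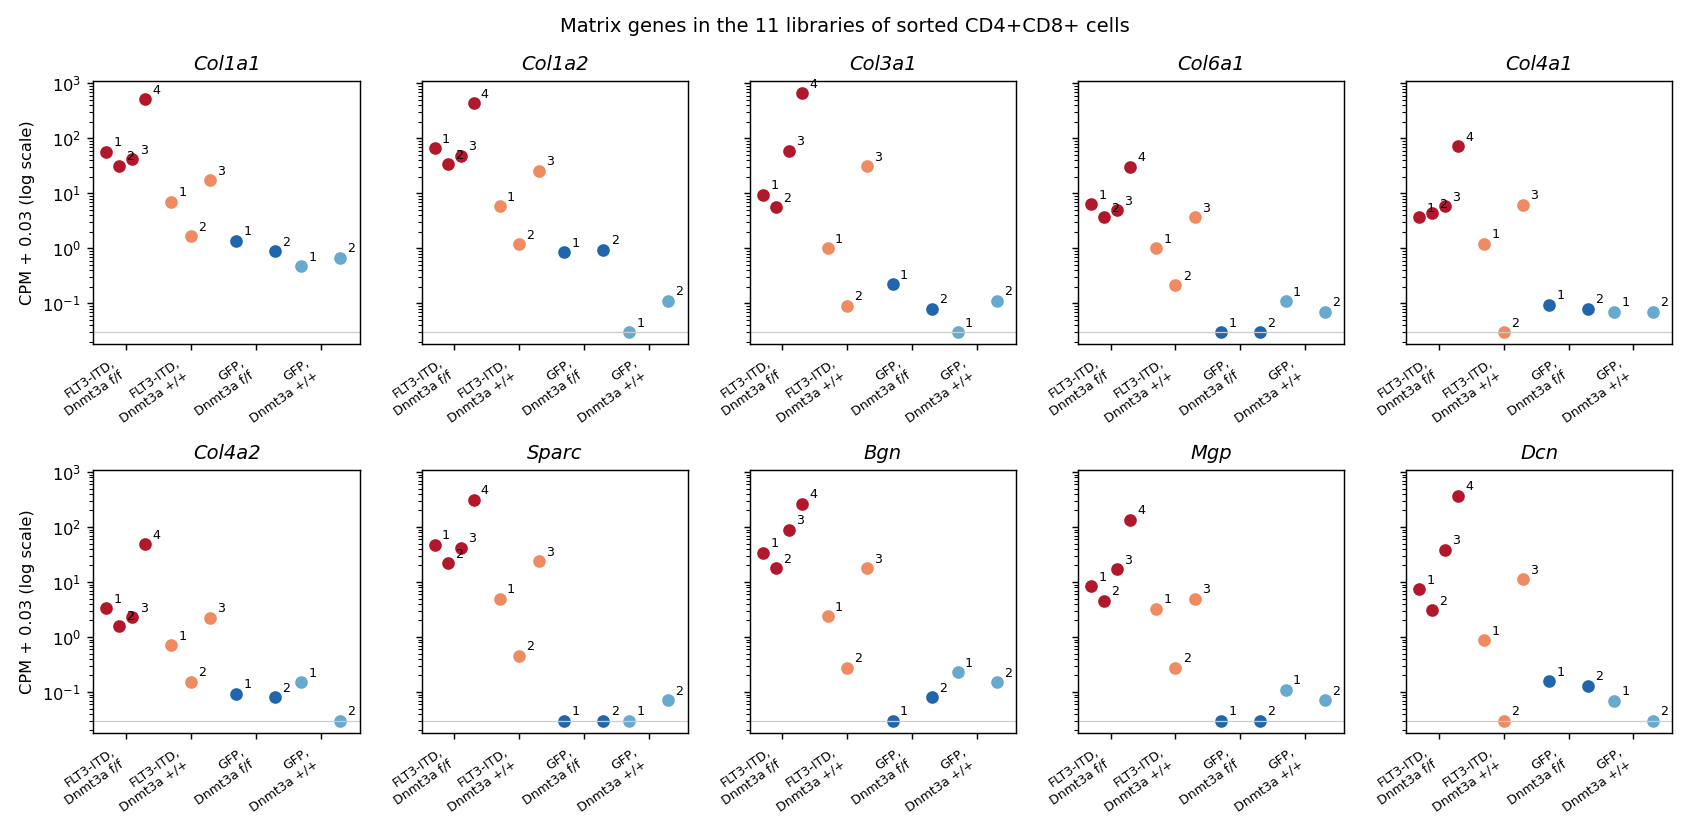
CPM + 0.03 on a log axis of 10 matrix genes in the 11 retroviral libraries, 1 point per library with its replicate number, where the grey line marks a count of 0. In each panel the 4 FLT3-ITD Dnmt3a f/f leukemias lie above the GFP Dnmt3a f/f thymocytes, replicate 4 is the highest, and FLT3-ITD Dnmt3a +/+ replicate 3 lies nearest to the FLT3-ITD Dnmt3a f/f leukemias.

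The 15 calls were all made again without FLT3-ITD Dnmt3a f/f replicate 4. They rest on the GFP side, where 2 libraries form the group: without GFP Dnmt3a f/f replicate 1, or without replicate 2, none of the 15 was called, although the differences remained on the same side, and a fit to these 2 groups alone called 2 of the 15 (Bgn and Col6a3). By the notes on each sample, donor marrow was enriched by Sca-1 for all FLT3-ITD Dnmt3a f/f libraries and by ckit for both GFP Dnmt3a f/f libraries, although the general protocol names Sca1 alone, so the virus and the enrichment cannot be told apart here.

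Markers of other cells moved with the matrix genes. The 15 mesenchymal stroma markers, which share no gene with the 54, summed to 43.1 to 400.6 CPM in FLT3-ITD Dnmt3a f/f leukemias, against 8.81 and 10.3 CPM in GFP Dnmt3a f/f thymocytes. Of the 13 tested, 9 were called higher, among them Pdgfra, Pdgfrb, Cxcl12 and Lepr, while Acta2 had no count in any of the 17 libraries. Pdgfra, Myl9, Cspg4, Twist1 and Foxc1 were at 0 in both GFP Dnmt3a f/f libraries. Pdgfrb alone was 340 CPM of the 400.6 CPM, which is the sum of replicate 3. The 12 endothelial markers summed to 81.2 to 305.2 CPM in the leukemias, against 146.5 and 148.3 CPM in the thymocytes. Pecam1 alone was at 142.1 and 142.8 CPM in the thymocytes and at 41.7 to 100.3 CPM in the leukemias. Of the 12, 10 had a positive log2 difference, as did 8788 of all 15508 genes tested, and 3 were called higher (Tek, Emcn and Lyve1). Of all genes tested, 9.80% were called higher in this comparison.

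The 10 macrophage markers summed to 137.7 to 4887 CPM in FLT3-ITD Dnmt3a f/f leukemias, against 60.4 and 74.4 CPM in GFP Dnmt3a f/f thymocytes, and none was called. For 10 thymic epithelium markers the sums were 100.2 to 353.7 CPM against 36.6 and 39.0 CPM. Epcam, the gene called, was most of the sum in FLT3-ITD Dnmt3a f/f replicates 1 to 3. In replicate 4 Epcam was at 77.7 CPM and Cldn4 at 80.3 CPM of a sum of 205.7 CPM. Krt5 and Krt14 were at 0 in both marrow leukemias. For 8 osteoblast markers the sums were 21.8 to 151.4 CPM against 5.62 and 7.45 CPM, with Runx2 called. Runx2 was most of the sum in FLT3-ITD Dnmt3a f/f replicates 1, 3 and 4, at 84.1, 149.5 and 96.7 CPM, and was at 10.2 CPM in replicate 2. In the thymocytes it was at 4.28 and 6.28 CPM. In replicate 3 Bglap, Bglap2, Ibsp, Sp7 and Dmp1 had no count. Ibsp was at 11.7 and 9.45 CPM in the marrow leukemias and at most 0.971 CPM in the thymus leukemias. Cd4, Cd8a and Cd8b1 were called lower in the same comparison. The part of these other cells in the matrix levels was not tested.

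**Figure D3:**
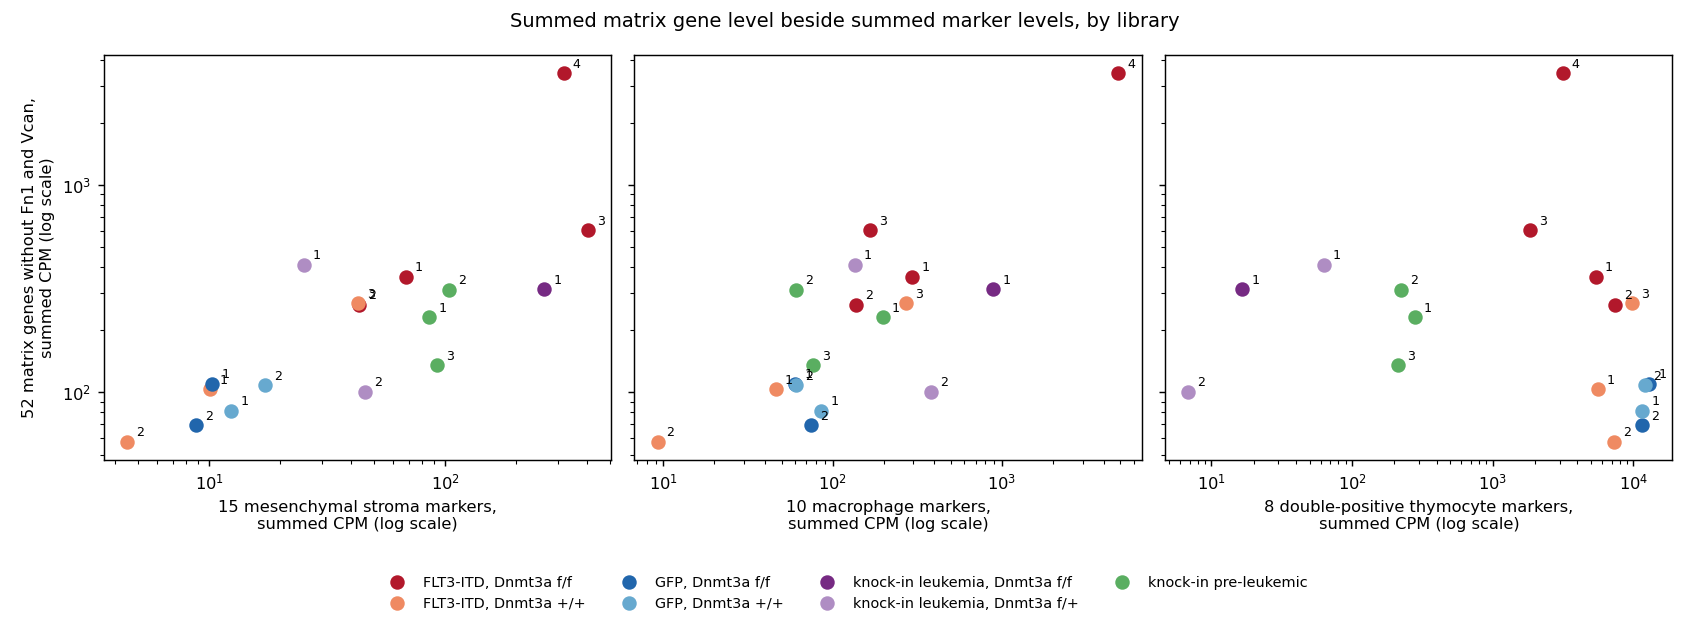
Summed CPM of the 52 matrix genes other than Fn1 and Vcan (vertical log axis) beside summed CPM of 3 marker lists (horizontal log axes), 1 point per library, numbered by replicate. FLT3-ITD Dnmt3a f/f replicate 4 is at the top with 3471 CPM of matrix genes and 4887 CPM of macrophage markers, and the 4 GFP libraries are low in matrix genes and high in thymocyte markers.

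FLT3-ITD leukemias with intact Dnmt3a were compared with GFP thymocytes with intact Dnmt3a. The matrix genes that led above were at intermediate levels here, with a wide spread between the leukemias, and none passed the test. Of the 46 members tested, edgeR called 0 after adjustment, where 2.24% of all genes tested were called, 1.35% higher and 0.890% lower. An unadjusted p under 0.05 was reached by 14 of the members and by 2749 of all 15508 genes tested. DESeq2's Wald test called 9 of the 46, and 9.04% of all genes tested. The median fitted log2 difference of the members was 2.31, or 1.71 with bounds, against 0.03 over all genes tested.

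Col1a1 was at 6.99, 1.65 and 17.3 CPM in FLT3-ITD Dnmt3a +/+ replicates 1 to 3, against 0.440 and 0.648 CPM in GFP Dnmt3a +/+ thymocytes. The groups did not overlap, yet the adjusted p was 0.178 for a log2 difference of 3.97 ± 1.46. Col1a2 was at 5.86, 1.16 and 25.7 CPM in the leukemias, against 0 and 0.081 CPM in the thymocytes, a ratio of 260.9 (71.9 to 2160; adjusted p = 0.0898), the smallest unadjusted p of any member in this comparison (0.00375). Replicate 3, a thymus leukemia, was the highest and replicate 2, the marrow leukemia, the lowest for both chains.

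The same order held for most listed genes. Sparc was at 4.92, 0.429 and 24.1 CPM in FLT3-ITD Dnmt3a +/+ replicates 1 to 3, against 0 and 0.0405 CPM in GFP Dnmt3a +/+ thymocytes, and Bgn at 2.36, 0.245 and 18 CPM against 0.200 and 0.122 CPM. Mgp was at 3.25, 0.245 and 4.97 CPM against 0.080 and 0.0405 CPM, and Dcn at 0.837, 0 and 11.1 CPM against 0.040 and 0 CPM. These 4 genes were higher in replicate 3 than in replicate 1 and lowest in replicate 2.

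Col4a1 and Col4a2 were at 1.18 and 0.689 CPM in FLT3-ITD Dnmt3a +/+ replicate 1, 0 and 0.123 CPM in replicate 2 and 6.14 and 2.21 CPM in replicate 3, against at most 0.120 CPM in either GFP Dnmt3a +/+ library. Col6a1 was at 0.985, 0.184 and 3.68 CPM in the leukemias, against 0.080 and 0.0405 CPM in the thymocytes. Lum, Fbn1, Eln and Postn reached at most 2.95 CPM in these leukemias, against at most 0.200 CPM in the thymocytes. Fn1 was at 5.42, 0.245 and 11.6 CPM in the leukemias, against 1.20 and 7.90 CPM in the thymocytes, and the groups overlapped.

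Vcan, a large proteoglycan of provisional matrix, had a narrow spread, at 6.70, 5.76 and 7.24 CPM in FLT3-ITD Dnmt3a +/+ leukemias, against 1.76 and 2.84 CPM in GFP Dnmt3a +/+ thymocytes. The groups did not overlap, as was the case for 12 of the 46 members on the higher side and 2 on the lower side, where 20.9% and 24.9% of all genes tested do so. The 15 mesenchymal stroma markers summed to 4.47 to 42.7 CPM in these leukemias, highest in replicate 3 and lowest in replicate 2, against 12.4 and 17.3 CPM in the thymocytes. Whether these markers account for the order of the leukemias was not tested.

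Within FLT3-ITD leukemias, floxed against intact Dnmt3a was the next comparison. Of the 46 members tested, edgeR called none after adjustment, where 0.490% of all genes tested were called, 0.206% higher and 0.284% lower. An unadjusted p under 0.05 was reached by 21 of the 46, by 4 of the 42 tested without FLT3-ITD Dnmt3a f/f replicate 4, and by 28 without FLT3-ITD Dnmt3a +/+ replicate 3. With all libraries it was reached by 3144 of all 15508 genes tested. DESeq2 called 8 of the 46, and 8.2% of all genes tested. The median fitted log2 difference of the members was 2.64 (2.63 with bounds), and 1.42 (1.38 with bounds) without FLT3-ITD Dnmt3a f/f replicate 4, against 0.07 over all genes tested, and 48 of 54 members had the higher mean CPM in FLT3-ITD Dnmt3a f/f leukemias, as did 53.6% of all genes with counts.

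The fibrillar chains made up most of the members that did not overlap. Col1a1 was at 31.6 to 513.3 CPM in FLT3-ITD Dnmt3a f/f leukemias, against 1.65 to 17.3 CPM in FLT3-ITD Dnmt3a +/+ leukemias, without overlap, for a log2 difference of 4.22 ± 1.16 (adjusted p = 0.114) that was 2.32 without FLT3-ITD Dnmt3a f/f replicate 4 and 5.20 without FLT3-ITD Dnmt3a +/+ replicate 3. Col1a2 did not overlap either, with 33.5 to 434.7 CPM against 1.16 to 25.7 CPM (adjusted p = 0.161). In all, 7 of the 46 members lay wholly higher and none wholly lower, where 4.85% and 6.24% of all genes tested do so, and 5 of the 7 were fibrillar chains.

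Most other members overlapped. Bgn was at 18 to 264.2 CPM in FLT3-ITD Dnmt3a f/f leukemias, against 0.245 to 18 CPM in FLT3-ITD Dnmt3a +/+ leukemias, Sparc at 21.9 to 314.9 CPM against 0.429 to 24.1 CPM, and Col4a1 at 3.69 to 71.1 CPM against 0 to 6.14 CPM. In each of these, FLT3-ITD Dnmt3a +/+ replicate 3, from thymus, reached the level of FLT3-ITD Dnmt3a f/f replicate 2, from marrow, and for Col4a1 also those of replicates 1 and 3. The mesenchymal stroma markers summed to 43.1 to 400.6 CPM in FLT3-ITD Dnmt3a f/f leukemias, against 4.47 to 42.7 CPM in FLT3-ITD Dnmt3a +/+ leukemias and 1 of 13 tested was called (Pdgfrb). The 10 macrophage markers summed to 137.7 to 4887 CPM, against 9.25 to 270.5 CPM, and all 10 were higher with an unadjusted p under 0.05, though none was called. Of the 12 endothelial markers 11 were higher, 6 with an unadjusted p under 0.05, with sums of 81.2 to 305.2 CPM against 82.7 to 130.3 CPM. The part of these cells was not tested. The tissue mix differed between the genotypes, with 2 of 4 FLT3-ITD Dnmt3a f/f and 2 of 3 FLT3-ITD Dnmt3a +/+ libraries from thymus.

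Col27a1, a fibrillar chain of cartilage whose values led to its selection here, behaved unlike the other fibrillar chains. It was at 28.0, 66.5, 157.0 and 254.5 CPM in FLT3-ITD Dnmt3a f/f leukemias, 0.394, 0.674 and 20.5 CPM in FLT3-ITD Dnmt3a +/+ leukemias, 38.6 and 25.7 CPM in GFP Dnmt3a f/f thymocytes and 27.6 and 46.2 CPM in GFP Dnmt3a +/+ thymocytes. Thymocytes of both genotypes thus held it at 25.7 to 46.2 CPM, FLT3-ITD Dnmt3a f/f leukemias matched or passed them, and FLT3-ITD Dnmt3a +/+ leukemias lay below, 2 of them under 1 CPM. The log2 difference between FLT3-ITD Dnmt3a f/f and Dnmt3a +/+ leukemias was 4.14 ± 1.21 (unadjusted p = 0.00459, adjusted p = 0.126).

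The FLT3-ITD effect on Col27a1 was higher with floxed than with intact Dnmt3a by 4.34 ± 1.78 on the log2 scale (unadjusted p of the interaction 0.0299, adjusted p = 0.819). It was the only 1 of the 46 members with an unadjusted p under 0.05 for this difference of differences. Of all 15508 genes tested, 838 had such a p, and 0.00% were called after adjustment. Without FLT3-ITD Dnmt3a +/+ replicate 3, the thymus leukemia at 20.5 CPM, Col27a1 was called in the interaction, higher in FLT3-ITD Dnmt3a f/f than in FLT3-ITD Dnmt3a +/+ leukemias and lower in FLT3-ITD Dnmt3a +/+ leukemias than in GFP Dnmt3a +/+ thymocytes. The comparisons share control libraries, so these calls do not count separately.

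Dnmt3a floxing alone, in GFP thymocytes, moved no member past the test. Dnmt3a itself was at 144.2 and 207.1 CPM in GFP Dnmt3a f/f, against 250.1 and 257.2 CPM in GFP Dnmt3a +/+ thymocytes. These counts also cover exons the deletion spares, so they do not show how far Dnmt3a was lost. Of 46 members tested, 0 were called by edgeR and 0 by DESeq2, where edgeR called 0.00% of all genes tested. No member had an unadjusted p under 0.05 from edgeR, against 74 of all 15508 genes tested. After Col27a1, the chains Col11a2 and Col15a1 were the most abundant in thymocytes: Col11a2, a chain of type XI collagen, was at 30.7 and 13.9 CPM in GFP Dnmt3a f/f and 20.7 and 19.8 CPM in GFP Dnmt3a +/+ thymocytes, and Col15a1, of the basement membrane zone, at 14.4 and 10.6 CPM against 13.4 and 18.8 CPM. Each pair of groups overlapped. With 2 libraries a group, small differences would not be detected.

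Col15a1 and Col11a2 did not have the high values of the stromal chains in FLT3-ITD Dnmt3a f/f leukemias. Col15a1 was at 28.3, 20.3, 14.1 and 18.3 CPM in FLT3-ITD Dnmt3a f/f and 20.6, 22.7 and 16.3 CPM in FLT3-ITD Dnmt3a +/+ leukemias, and Col11a2 at 8.27, 14.3, 21.6 and 7.52 CPM and at 24.4, 17.6 and 28.9 CPM. For both genes the groups overlapped, and neither was highest in FLT3-ITD Dnmt3a f/f replicate 4. In the knock-in marrow Col15a1 was at 0.751 CPM in the Dnmt3a f/f leukemia, 0.577 and 0.572 CPM in the Dnmt3a f/+ leukemias and at most 0.553 CPM in pre-leukemic marrow, so its level went with the sorted T-lineage libraries of the retroviral model.

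Col7a1, the anchoring fibril collagen of skin, ran against the stromal chains, at 1.21 to 3.02 CPM in FLT3-ITD Dnmt3a f/f leukemias, 2.02 to 3.84 CPM in FLT3-ITD Dnmt3a +/+ leukemias, 4.81 and 9.33 CPM in GFP Dnmt3a f/f thymocytes and 5.72 and 8.51 CPM in GFP Dnmt3a +/+ thymocytes. It was the 1 member wholly lower in FLT3-ITD Dnmt3a f/f leukemias than in GFP Dnmt3a f/f thymocytes, where 21.8% of all genes tested were, and it was not called. An exon of Col7a1 overlaps the microRNA gene Mir711 over 36 bases. Col20a1, Col23a1 and Col9a3 were at 0.824 to 6.60 CPM in all retroviral libraries. Col9a3 overlaps Tcfl5 on the opposite strand over 229 exon bases, so its counts may hold reads of Tcfl5.

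**Figure D4:**
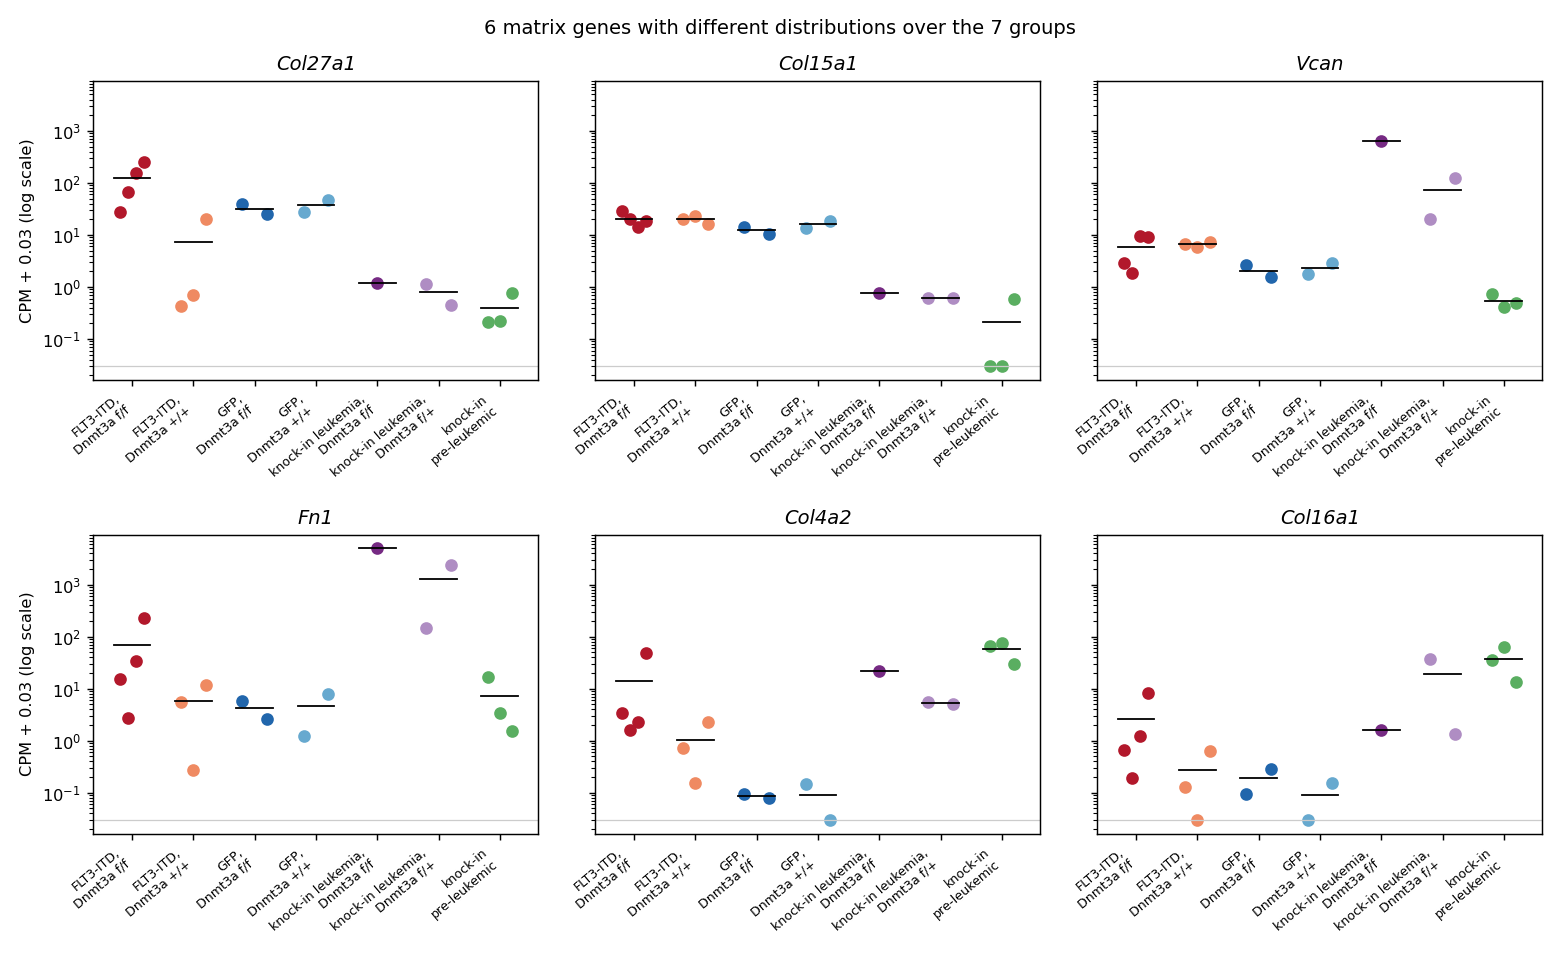
CPM + 0.03 on a log axis of 6 matrix genes in the 7 groups, with 1 point per library and a bar at the mean of the group; the grey line marks a count of 0. Col27a1 is low in 2 of 3 FLT3-ITD Dnmt3a +/+ leukemias, Col15a1 is level in the retroviral groups and near 0 in the knock-in marrow, Vcan and Fn1 peak in knock-in leukemias, and Col4a2 and Col16a1 are highest in pre-leukemic marrow.

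Tissue of origin was compared within the 7 FLT3-ITD leukemias, with Dnmt3a genotype in the fit. Thymus leukemias had more matrix RNA than marrow leukemias for most members, but no member passed the adjusted test. Of 40 members tested, edgeR called 0, where 0.00% of 14304 genes tested were called. An unadjusted p under 0.05 was reached by 25 members, all higher in thymus, and by 2103 of all genes tested. Without FLT3-ITD Dnmt3a f/f replicate 4 it was reached by 6 of the 36 members tested. DESeq2 called 19 of the 40, and 5.67% of all genes tested. The median log2 difference of the members was 3.10 (2.92 with bounds), and 1.93 without that library, against 0.06 over all genes tested. Markers of some other cells lay the same way. All 10 macrophage markers were higher in thymus, 9 with an unadjusted p under 0.05. So were all 13 tested mesenchymal stroma markers (5), all 8 tested thymic epithelium markers (4) and 11 of 12 endothelial markers (4). Osteoblast and granulocyte markers did not, with 2 of 5 tested and 2 of 8 higher in thymus. Macrophage markers summed to 46.3 to 4887 CPM in thymus leukemias (at most 270.5 CPM without replicate 4), against 9.25 to 296.5 CPM in marrow leukemias, and mesenchymal stroma markers to 10.1 to 400.6 CPM against 4.47 to 68.1 CPM. Thymic epithelium markers summed to 127.7 to 353.7 CPM against 100.2 to 131.1 CPM, and endothelial markers to 82.7 to 305.2 CPM against 81.2 to 130.3 CPM. Their part in the matrix levels was not tested.

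Mgp had the smallest p, with 3.25 and 4.97 CPM in the FLT3-ITD Dnmt3a +/+ thymus leukemias and 17.1 and 135.1 CPM in the FLT3-ITD Dnmt3a f/f thymus leukemias, against 0.245 CPM in the FLT3-ITD Dnmt3a +/+ marrow leukemia and 8.27 and 4.51 CPM in the FLT3-ITD Dnmt3a f/f marrow leukemias. Thymus was above marrow within FLT3-ITD Dnmt3a +/+ leukemias and within FLT3-ITD Dnmt3a f/f leukemias. The log2 difference was 3.74 ± 0.78 (unadjusted p = 0.00179, adjusted p = 0.334), and 2.59 without FLT3-ITD Dnmt3a f/f replicate 4. Fn1 followed, at 5.42 to 226.1 CPM in thymus leukemias and 0.245 to 15.1 CPM in marrow leukemias, a log2 difference of 4.23 ± 0.96 (adjusted p = 0.334) that was 3.30 without that library.

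In FLT3-ITD Dnmt3a f/f leukemias type I collagen did not follow tissue: Col1a1 was at 41.3 and 513.3 CPM in the thymus libraries, against 57.0 and 31.6 CPM in the marrow libraries, so replicate 3 lay between the marrow values. Col3a1, Bgn, Dcn and Postn had both thymus libraries above both marrow libraries. Over both genotypes, 2 of the 40 members lay wholly higher in thymus and none wholly lower, where 2.59% and 2.75% of all genes tested do. In the FLT3-ITD Dnmt3a f/f group, tissue and submission cannot be told apart, because replicates 3 and 4 are both the thymus libraries and the second submission.

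In the knock-in model, leukemias were compared with pre-leukemic marrow, where calls fell mainly on genes that had none above. Vcan and Fn1, the provisional matrix genes, were called higher in both leukemia genotypes. For knock-in Dnmt3a f/+ leukemias, 2 of 46 members were called higher and none lower, where 3.43% of all genes tested were called higher and 1.57% lower. For the knock-in Dnmt3a f/f leukemia, 3 were called higher (Vcan, Fn1 and Col12a1) and none lower, where 3.01% of all genes tested were called, 2.11% higher and 0.903% lower. That leukemia is 1 library, assumed in the fit to vary like the other groups, and both comparisons share the pre-leukemic libraries.

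Vcan (chromosome 13, 89794915 to 89882117, minus strand, mm9) was at 641.5 CPM in the knock-in Dnmt3a f/f leukemia and 20 and 124.8 CPM in the knock-in Dnmt3a f/+ leukemias, against 0.711, 0.377 and 0.468 CPM in pre-leukemic marrow. Every leukemia lay above every pre-leukemic library. The log2 difference was 10.29 ± 1.02 in knock-in Dnmt3a f/f (adjusted p = 0.00251) and 7.14 ± 0.91 in knock-in Dnmt3a f/+ (adjusted p = 0.00367), and without knock-in Dnmt3a f/+ replicate 2 it was 5.29 in knock-in Dnmt3a f/+. Vcan stayed called without each library in turn.

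Fn1 (chromosome 1, 71632047 to 71699808, minus strand, mm9), which encodes fibronectin, was at 4973 CPM in the knock-in Dnmt3a f/f leukemia and 143.4 and 2371 CPM in the knock-in Dnmt3a f/+ leukemias, against 16.5, 3.39 and 1.49 CPM in pre-leukemic marrow. It was the most abundant matrix gene of any library. The log2 difference was 9.51 ± 2.19 in knock-in Dnmt3a f/f (adjusted p = 0.0394) and 7.53 ± 1.97 in knock-in Dnmt3a f/+ (adjusted p = 0.0463). Those calls were not firm: Fn1 was not called without any 1 of the 3 pre-leukemic libraries in either comparison, nor without knock-in Dnmt3a f/+ replicate 2, where the log2 difference was 4.41.

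Col12a1, a FACIT collagen of tendon and ligament, was at 13.3 CPM in the knock-in Dnmt3a f/f leukemia and 5.71 and 1.72 CPM in the knock-in Dnmt3a f/+ leukemias, against 0, 0.189 and 0.0426 CPM in pre-leukemic marrow. In knock-in Dnmt3a f/f the ratio was 228.9 (62.7 to 1900; adjusted p = 0.0427), and the call was lost without any 1 of the pre-leukemic libraries. In knock-in Dnmt3a f/+ it missed the threshold (ratio 65.8, 17.8 to 549.8; adjusted p = 0.0641).

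The transcript estimates show which forms of these genes were counted. Of 7 deposited models of Fn1, 4 hold a 270-base exon and 1 a 273-base exon, the sizes of the alternative extra domain A and B exons. Models with the 270-base exon took 7.33% of the Fn1 count in the knock-in Dnmt3a f/f leukemia and 8.30% and 6.20% in the knock-in Dnmt3a f/+ leukemias, and those with the 273-base exon at most 0.882%. In the retroviral leukemia FLT3-ITD Dnmt3a f/f replicate 4 the shares were 17.1% and 11.2%, and in FLT3-ITD Dnmt3a +/+ replicate 3 they were 33.1% and 15.5%, of 1863 and 189 counts. In FLT3-ITD Dnmt3a f/f replicates 1 and 3 the 270-base shares were 13.1% and 17.8%, in FLT3-ITD Dnmt3a +/+ replicate 1 it was 0%, and these 3 libraries had no share with the 273-base exon, of 119, 280 and 110 counts. In the thymocyte library GFP Dnmt3a +/+ replicate 2 the shares were 17.7% and 0%, of 195 counts, so the 270-base share was not particular to the retroviral leukemias. The assignment of counts to transcripts is an estimate by the authors' software with no interval.

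Vcan has 2 large exons that code for chondroitin sulfate attachment regions, 5217 and 2880 bases long in the deposited models. The model with the 5217-base exon alone took 79.7% of the Vcan count in the knock-in Dnmt3a f/f leukemia, 54.9% and 74.8% in the knock-in Dnmt3a f/+ leukemias, and 49.3% and 65.7% in FLT3-ITD Dnmt3a +/+ replicates 1 and 3. The model with both took 13.8% in knock-in Dnmt3a f/f, 5.83% and 11.4% in knock-in Dnmt3a f/+ and 35% and 31.5% in the FLT3-ITD Dnmt3a +/+ replicates. Models with neither large exon took 5.93% in knock-in Dnmt3a f/f and 39.2% and 13.8% in knock-in Dnmt3a f/+ replicates 1 and 2. In FLT3-ITD Dnmt3a +/+ replicates 1 and 3 they took 15.7% and 2.24%. Libraries under 100 Vcan counts were not read for this.

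Other members of the knock-in leukemias had levels that did not pass the test. Sparc was at 30.9 CPM in knock-in Dnmt3a f/f and 193.9 and 5.37 CPM in knock-in Dnmt3a f/+ leukemias, against 2.49, 2.07 and 2.00 CPM in pre-leukemic marrow, and Mgp at 41.0 CPM and 14.2 and 17.6 CPM, against 0.356, 2.07 and 0.0851 CPM. Col1a1 was at 17.9 CPM and 16.8 and 5.80 CPM, against 0.889, 0.377 and 0.0426 CPM (adjusted p = 0.0757 in knock-in Dnmt3a f/f and 0.0679 in Dnmt3a f/+). For these 3 genes every leukemia lay above every pre-leukemic library, as did 15 of 46 members in knock-in Dnmt3a f/+, where 22.7% of all genes tested do, and 32 of 46 in the single knock-in Dnmt3a f/f library, where 37.4% do.

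Bgn was at 40.5 CPM in the knock-in Dnmt3a f/f leukemia and 37.3 and 3.15 CPM in knock-in Dnmt3a f/+ leukemias, against 22.0, 42.0 and 4.98 CPM in pre-leukemic marrow, with full overlap. Fbn1 was at 19.8 CPM and 4.10 and 5.37 CPM, against 6.58, 6.98 and 4.09 CPM, and Dcn at 8.85 CPM and 3.21 and 1.86 CPM, against 0.178, 0.754 and 0.0851 CPM. Col1a2 was at 31.0 CPM and 16.2 and 0.501 CPM, against 3.91, 8.86 and 5.49 CPM. Lum, Eln and Postn were at most 1.77 CPM in any knock-in library. The small proteoglycan and microfibril genes thus showed no call in either direction.

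The common collagen IV chains were at their knock-in maximum in pre-leukemic marrow. Col4a1 was at 29.3 CPM in the knock-in Dnmt3a f/f leukemia and 9.88 and 6.51 CPM in the knock-in Dnmt3a f/+ leukemias, against 60.4, 60.5 and 33.2 CPM in pre-leukemic marrow, and Col4a2 at 21.7 CPM and 5.58 and 5.15 CPM, against 65.6, 75.0 and 29.8 CPM. All 3 leukemias lay below all 3 pre-leukemic libraries for both chains. No call was made (Col4a2 in knock-in Dnmt3a f/+: log2 difference -3.40 ± 1.5, adjusted p = 0.18), and 4 of the 5 tested collagen IV chains lay wholly lower in knock-in Dnmt3a f/+, where 20.9% of all genes tested do. Beside Col4a1 and Col4a2, these were chains with few counts. Col4a5 had 0 and 2 counts against 4, 2 and 10 in pre-leukemic marrow, and Col4a6 had 0 and 0 against 1, 1 and 3. Col4a6 was tested only through the retroviral library FLT3-ITD Dnmt3a f/f replicate 4.

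Col16a1, a FACIT collagen, and Col18a1, whose protein is the source of endostatin, split the leukemias. Col16a1 was at 1.61 CPM in knock-in Dnmt3a f/f and 37.5 and 1.29 CPM in knock-in Dnmt3a f/+ leukemias, against 35.2, 64.5 and 13.3 CPM in pre-leukemic marrow, and Col18a1 at 2.09 CPM and 44.1 and 0.716 CPM, against 12.4, 27.7 and 7.66 CPM. Knock-in Dnmt3a f/+ replicate 1 was like pre-leukemic marrow for both, and the other leukemias were low. Replicate 1 also held the most Sparc of the knock-in libraries.

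Markers of other cells changed here too. The 12 endothelial markers, several of which blood stem cells and megakaryocytes also express, summed to 170.4 CPM in the knock-in Dnmt3a f/f leukemia and 93.9 to 380.3 CPM in knock-in Dnmt3a f/+ leukemias, against 322.9 to 763.8 CPM in pre-leukemic marrow. Tek was called lower in knock-in Dnmt3a f/+. The 8 granulocyte markers summed to 12660 CPM and 3095 to 16340 CPM, against 2348 to 3761 CPM, with Retnlg called higher in both genotypes. The 10 macrophage markers summed to 887.4 CPM and 135.0 to 381.4 CPM, against 61.1 to 198.2 CPM. The part of these cells in the levels of Vcan, Fn1, Col4a1 and Col4a2 was not tested.

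Genes that process and remodel collagen were read beside its chains. In FLT3-ITD Dnmt3a f/f leukemias against GFP Dnmt3a f/f thymocytes, 6 of 25 tested genes for collagen folding, processing and cross-linking were called higher and none lower, against 9.80% and 9.85% of all genes tested. They were Adamts2, which cleaves the amino-terminal propeptide, with 5.64 ± 7.41 CPM (SD, n = 4) in the leukemias and no count in the thymocytes; Pcolce, an enhancer of the carboxy-terminal protease, with 8.02 ± 6.96 and 0.509 ± 0.00326 CPM (SD, n = 4 and 2; adjusted p = 0.0258 from edgeR); and Crtap, Ppib, P4hb and Glt25d1 of the secretory pathway, with log2 differences of 2.15, 0.98, 0.87 and 0.67. The last 4 are used for other proteins as well. Serpinh1, the collagen chaperone, was at 4.23 to 48.9 CPM in the leukemias and 0.511 and 0.557 CPM in the thymocytes and was not called, nor were Lox or Plod1.

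Of 13 matrix proteases and inhibitors, 2 were called higher in FLT3-ITD Dnmt3a f/f leukemias against GFP Dnmt3a f/f thymocytes and none lower. Of all genes tested, 9.80% were called higher and 9.85% lower. Mmp13, a collagenase, was at 18.8, 12.4, 0.722 and 4.49 CPM in replicates 1 to 4, against 0.256 and 0 CPM in thymocytes, and so was highest in the marrow leukemias, unlike the collagen chains. Timp3, a protease inhibitor bound to matrix, was at 1.65 to 31.3 CPM, against 0 and 0.101 CPM. Among 13 tested receptors for collagen and fibronectin, the collagen receptor Ddr2 was the 1 called, at 0.824 to 14.3 CPM against 0 and 0.0506 CPM. A count of 1 in 13 is near the share of all genes called higher.

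In the knock-in model, proteases of neutrophils were among the genes called. Mmp9, a gelatinase of neutrophil granules, was at 633.4 CPM in the knock-in Dnmt3a f/f leukemia and 321.4 ± 405.2 CPM in knock-in Dnmt3a f/+ leukemias (SD, n = 2), against 1.23 ± 0.732 CPM in pre-leukemic marrow (SD, n = 3), and it was called in both genotypes (adjusted p = 0.0179 and 0.018 from edgeR). Mmp8, a neutrophil collagenase, was called in knock-in Dnmt3a f/+ leukemias at 264.9 ± 284.3 CPM against 2.71 ± 2.2 CPM, and Mmp13 and the collagen-binding integrin gene Itga1 in knock-in Dnmt3a f/f, at 40.6 and 125.6 CPM, against means of 0.0593 and 2.08 CPM. The 25 processing genes gave 1 call in knock-in Dnmt3a f/+ (P4hb, higher) and none in knock-in Dnmt3a f/f. Of all genes tested, 3.43% and 2.11% were called higher in these comparisons.

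Chains that share a triple helix were compared per kilobase of exon, where 2 chains can be set side by side. The type I trimer holds 2 Col1a1 chains and 1 Col1a2 chain, and over the 8 libraries with at least 20 counts of each the RNA level ratio of Col1a1 to Col1a2 was 0.631 to 1.31 with a median of 0.981. It stayed in that range from 1.49 CPM per kb of Col1a1 in FLT3-ITD Dnmt3a +/+ replicate 1 to 109.3 CPM per kb in FLT3-ITD Dnmt3a f/f replicate 4. Col6a1 over Col6a2 was 1.11 to 1.74 in 6 libraries and Col4a1 over Col4a2 was 0.783 to 2.70 in 10.

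The type V pair was less even. Col5a1 over Col5a2 was 0.394 to 0.872 in the FLT3-ITD libraries with at least 20 counts of each, and 4.34 in the knock-in Dnmt3a f/f leukemia. In pre-leukemic marrow Col5a1 was at 2.49, 7.16 and 18.2 CPM while Col5a2 was at 0, 0 and 0.0426 CPM. Col1a2 also had a level without its partner there, at 3.91, 8.86 and 5.49 CPM against 0.889, 0.377 and 0.0426 CPM of Col1a1. In pre-leukemic marrow 1 chain of types I and V thus had counts almost without the other, and in FLT3-ITD Dnmt3a +/+ replicate 1 Col5a1 likewise had 116 counts and Col5a2 had 11. Knock-in Dnmt3a f/+ replicate 2 had 81 counts of Col1a1 and 7 of Col1a2, and 154 of Col5a1 and 5 of Col5a2. The limit of 20 counts left all these pairs out of the ratios.

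**Figure D5:**
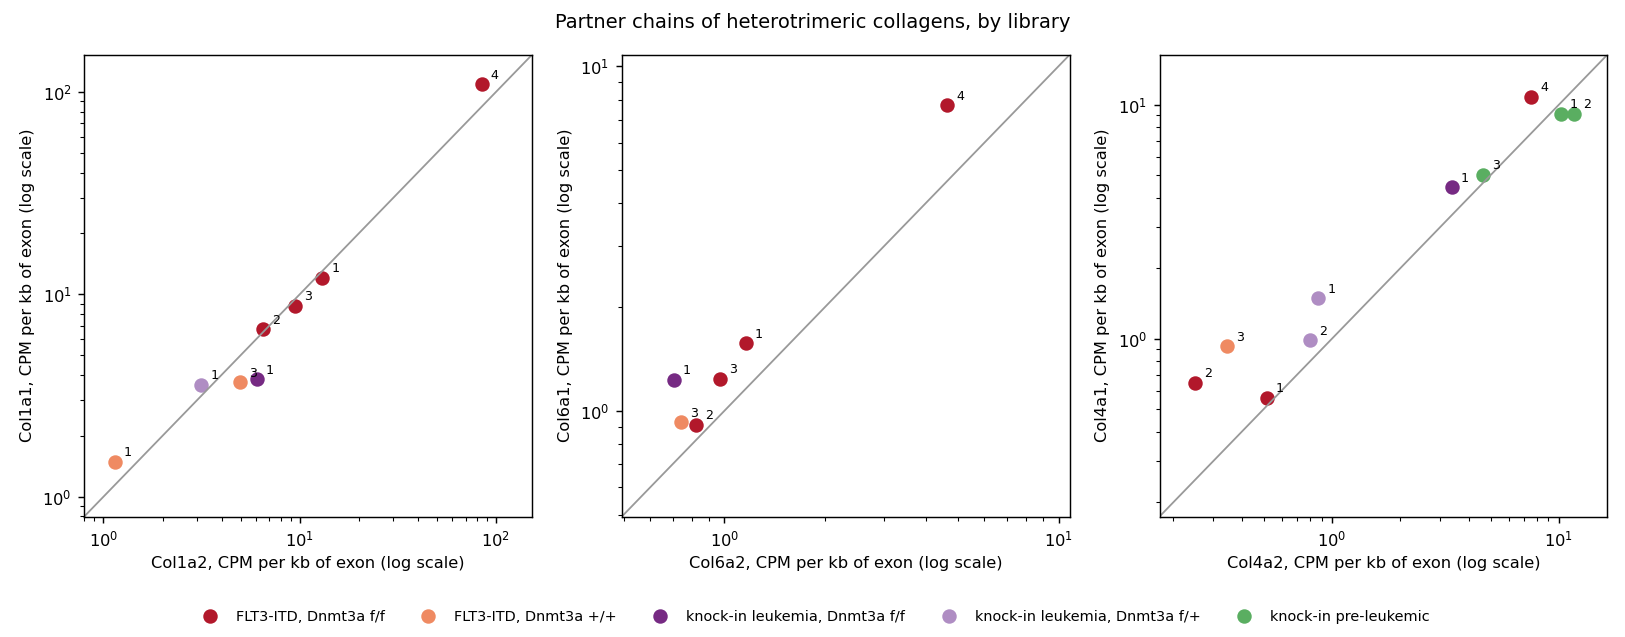
CPM per kb of exon of partner chains on log axes, for libraries with at least 20 counts of both, 1 point per library, numbered by replicate, with a line at equal levels. Points follow the line for Col1a1 and Col1a2 (ratio 0.631 to 1.31), lie above it for Col6a1 and Col6a2 (1.11 to 1.74) and scatter more for Col4a1 and Col4a2 (0.783 to 2.70).

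The start of decorin transcripts differed between libraries by the deposited estimates. Of 2 Dcn models that end at the same base of chromosome 10 (96980796, mm9), the one that starts at 96942134 took 58.0 and 56.0 counts in the marrow libraries FLT3-ITD Dnmt3a f/f replicates 1 and 2, where the one that starts at 96944984 took under 0.01. In the thymus libraries, replicates 3 and 4, the upstream start took 201.4 and 1304 counts and the downstream start 117.6 and 1730. In FLT3-ITD Dnmt3a +/+ thymus leukemias it was 17 and 38.8 counts upstream and 0.0227 and 142.2 downstream. Both starts were in use in 3 of the 4 thymus leukemias and the upstream one alone in the marrow FLT3-ITD leukemias that had Dcn counts; no test was made of these estimates. The knock-in leukemias, also from marrow, did not share that pattern: the knock-in Dnmt3a f/f leukemia had 143.1 counts upstream and 21.9 downstream, and the knock-in Dnmt3a f/+ leukemias had 0.0183 and 26 upstream and 50 and 0.00424 downstream.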

How the data were processed

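Polyadenylated RNA was sequenced from 19 samples, which form 17 libraries; technical runs of each GFP Dnmt3a +/+ library share 1 column. The authors deposited estimated counts per gene and per transcript, made with TopHat2 2.0.10 and the Cufflinks suite (2.1.1, Cuffdiff also 2.2.1) on mm9, per the submitters' processing notes. The step that wrote the counts, strand use and filters were not stated. Totals were 4933890 to 25331908 counts per library; counting intervals (95%) and the floor of 3 counts cover counting error only.

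Counts were rounded and tested with edgeR 4.0.16 in R 4.3.3 (TMM scaling, filterByExpr, quasi-likelihood test, Benjamini-Hochberg adjustment over all genes, threshold 0.05), in 1 fit of 17 libraries over 15508 genes; the tissue fit used the 7 FLT3-ITD leukemias, 14304 genes and genotype as a covariate. The scripts were tested on simulated counts. Exons counted as skipped were internal, of at least 250 bases and left out whole by a model. Alternatives were DESeq2 1.42.0, its size factors, no filter, a replicate block, fits to the compared groups or the first submission, and leaving out each library. Genes described in full are the 10 listed genes, up to 8 called members per comparison and the 6 with the highest median group mean; other members were chosen after their values were seen. Members and lists were chosen with earlier results of these data known. FPKM tables of 9 libraries were not used. The megakaryocyte marker list is not reported here.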

Additional observations from a re-analysis of the deposited data

Results flagged for a closer look

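In FLT3-ITD Dnmt3a f/f leukemias 16 of the 23 members checked had 1 library far from the other 3, and in all 16 it was replicate 4 on the high side. Members were checked when their mean CPM in this group, replicate 4 included, was at least 5. Some reached that mean only through replicate 4, such as Fbn1 (1.65, 1.04, 2.16 and 28.6 CPM) and Lum (1.15, 0.605, 2.53 and 23.1 CPM). For those members the flag was largely fixed in advance, so 16 of 23 does not measure how often replicate 4 stands apart. The flag is the gap to the nearest library over the range of the group, above Dixon's critical value for 4 samples. With that value chance flags about 1 in 20 groups if levels are normally distributed. The levels were taken as CPM, not on a log scale, and spread widely, so the chance rate here is not known. Members of 1 library are also not independent. For the fibrillar chains the value was 0.947 for Col1a1, 0.917 for Col1a2, 0.919 for Col3a1, 0.97 for Col5a1 and 0.934 for Col5a2. It was 0.969 for Col4a1 and 0.963 for Col4a2 of basement membranes, 0.904 for Col6a1 and 0.912 for Col6a2 of collagen VI, and 0.985 for the FACIT collagen Col12a1. Among the listed genes it was 0.913 for Sparc, 0.904 for Mgp, 0.903 for Dcn, 0.914 for Lum, 0.959 for Fbn1 and 0.861 for Fn1. In the same library the 15 mesenchymal stroma markers summed to 317.4 CPM, below the 400.6 CPM of replicate 3. That order rests on Pdgfrb, at 95.6 CPM in replicate 4 and 340 CPM in replicate 3. Tagln was also lower in replicate 4 (10.2 against 17.4 CPM) and Acta2 had no count. All the other stroma markers were higher in replicate 4 than in replicate 3. The 10 macrophage markers summed to 4887 CPM in replicate 4, the highest of the group. The part of these cells was not tested.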

How the results depend on the processing

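Counts of members called, by comparison. FLT3-ITD Dnmt3a f/f against GFP Dnmt3a f/f gave 15 in the fit reported, 2 in a fit to those groups alone, 7 in the first submission, 12 with the replicate block (Fbn1, Postn and Col8a1 lost, adjusted p = 0.0697, 0.0574 and 0.104), and 0 to 21 when each library was left out in turn; the 0 came without either GFP library, when 147 and 917 of all genes were called. FLT3-ITD Dnmt3a +/+ against GFP Dnmt3a +/+ gave 0, but 9 with DESeq2, 3 with the replicate block (Col1a1, Col27a1 and Mgp), 2 in the first submission and 0 to 1 without each library. FLT3-ITD Dnmt3a f/f against Dnmt3a +/+ gave 0, but 8 with DESeq2, 1 with the block (Col27a1) and 0 to 1 without each library. The interaction gave 0, and 0 to 1 without each library. Knock-in Dnmt3a f/+ against pre-leukemic marrow gave 2, but 5 with DESeq2, 1 with its size factors, 1 with the block, 1 in a fit to those groups alone and 1 to 4 without each library. Knock-in Dnmt3a f/f gave 3, but 5 with DESeq2, 1 with the block, 17 in a fit to those groups alone, and 1 without each pre-leukemic library. Thymus against marrow gave 0, but 19 with DESeq2 and 0 to 3 without each library; with the block, 18 of 25 members with an unadjusted p under 0.05 changed direction. Over all genes DESeq2 called 8.2% to 15.2% in the retroviral FLT3-ITD genotype, FLT3-ITD Dnmt3a +/+ and knock-in comparisons and 5.67% by tissue. Where a count changed, the cause was not tested, except that fits to fewer libraries have fewer degrees of freedom. Col27a1 turned its sign in FLT3-ITD Dnmt3a f/f against GFP Dnmt3a f/f with the block (log2 -0.01), and between GFP groups it ranged over -0.52 to 0.22 without each library.

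Replicate numbers did not pair the samples: deviations of same-numbered libraries correlated by -0.22 to 0.37. Crossing the numbers of the GFP groups gave 0 calls. With 1 or 2 libraries in 4 of the 7 groups, a library left out leaves a lone one assumed to vary like the rest, and depth limits members under 1 CPM.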
